A study of Mus musculus with 3 samples.

Results

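A set of 10 plasma protein genes that are best known from the liver was followed in mouse intestine: Alb, Afp, Ttr, Ahsg, Fga, Fgb, Fgg, Trf, Apoh and Rbp4. All 10 were found by symbol among the 21983 genes of the deposited table. They were chosen from the measured values themselves, because Alb and Afp went in opposite directions in the library of the disease model, so their levels and differences are given as a description, with no test. The data are read counts from RNA-seq of wild-type intestine in 3 groups, 1 library per group, with the animals killed after 96 h of the model. Control pups stayed with the dam, had neither hypoxia nor cold, and received PBS. NEC pups went through a model of necrotizing enterocolitis, a bowel disease of newborns, and received PBS. The model consisted of 40 µl of 33% Esbilac formula by gavage every 4 h for 96 h, together with 100 s of hypoxia (99.9% nitrogen) and then 10 min of cold (4 °C), repeated every 12 h. PCI34051+NEC pups went through the same model and were given PCI34051, an inhibitor of the lysine deacetylase HDAC8, at 10 mg/kg per day over 5 days in place of PBS. The labels give no strain, no age in days, and do not say if RNA of several pups was combined in a library.

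In the mammalian body these 10 genes are made above all by hepatocytes, and before birth by the visceral endoderm of the yolk sac as well. Albumin (Alb) and alpha-fetoprotein (Afp) are related carriers: Afp dominates in fetal plasma and is shut down around birth, when Alb takes over. Fetal and newborn intestine is known to make some of these proteins itself, alpha-fetoprotein and transthyretin among them. In inflammation interleukin-6 raises the fibrinogen genes in liver, while Alb, Ttr, Trf, Ahsg and Rbp4 are classed as negative acute phase genes there.

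The libraries held 15076413 counts (control), 10650638 (NEC) and 16497580 (PCI34051+NEC), so that 3 counts stood for 0.189, 0.274 and 0.197 CPM. Levels are given as CPM, the count scaled to library size with TMM factors. Log2 folds compare log2(CPM + 1) values and so come out too small for genes of low level. A gene was counted as at least 2-fold apart on that scale. Ratios written as "-fold" with an interval are plain CPM ratios with 95% exact conditional binomial intervals, which cover counting error only. There was no replicate, so no difference has a replicate check and no p-value is given. The NEC library stood apart from both others: mitochondrially encoded genes took 32.4% of its counts against 4.88% and 3.73%, and the Y-linked gene Eif2s3y had 0 counts there against 999 and 1134. The 8 enterocyte markers summed to 8053, 2171 and 10395 CPM for control, NEC and PCI34051+NEC, and each had counts in every library. In control 7 of them reached 1 CPM, and in the other libraries all 8. The exception was Fabp1, with 2 counts in control, 743 in NEC and 5537 in PCI34051+NEC. The sum hides a split. In NEC, 3 markers (Fabp1, Sis and Krt20) exceeded their control level by 2-fold or more, and 5 fell short of it by as much. Among all genes at 1 CPM or more in either library, 24.2% were at least 2-fold higher and 22.9% lower. The 6 smooth muscle markers summed to 1228, 10561 and 1258 CPM. Each library is a mixture of cell types, so fewer cells of a type and less RNA per cell cannot be told apart. The part of these differences in the results below was not tested.

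The 10 genes fell into contrasting patterns. In NEC against control, 5 of 10 (Alb, Ahsg, Fgg, Apoh, Rbp4) were at least 2-fold higher, where 24.2% of all 14627 measured genes were, and 3 of 10 (Afp, Ttr, Fga) at least 2-fold lower, where 22.9% were; 47.1% of measured genes were apart in one direction or the other. In PCI34051+NEC against NEC, the counts were 3 higher (Afp, Ttr, Fga; background 25%) and 5 lower (Alb, Ahsg, Fgg, Apoh, Trf; background 25.6%), where 50.6% of 14410 measured genes were apart either way. These comparisons share the NEC library, which also decided the choice of genes, so nothing is read from the counts. In PCI34051+NEC against control, 8 of 10 genes reached the 1 CPM that counts as measured. None was at least 2-fold higher and 3 (Alb, Afp, Fgg) were at least 2-fold lower, against a background of 6.55% in each direction and 13.1% in all. Trf, with a CPM ratio beyond 2-fold there, stayed under 2-fold on the log2(CPM + 1) scale. Ahsg and Apoh were under 1 CPM in both of those libraries. Of all counts, the 10 genes together took 0.128% in control, 0.026% in NEC and 0.0553% in PCI34051+NEC.

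**Figure D1:**
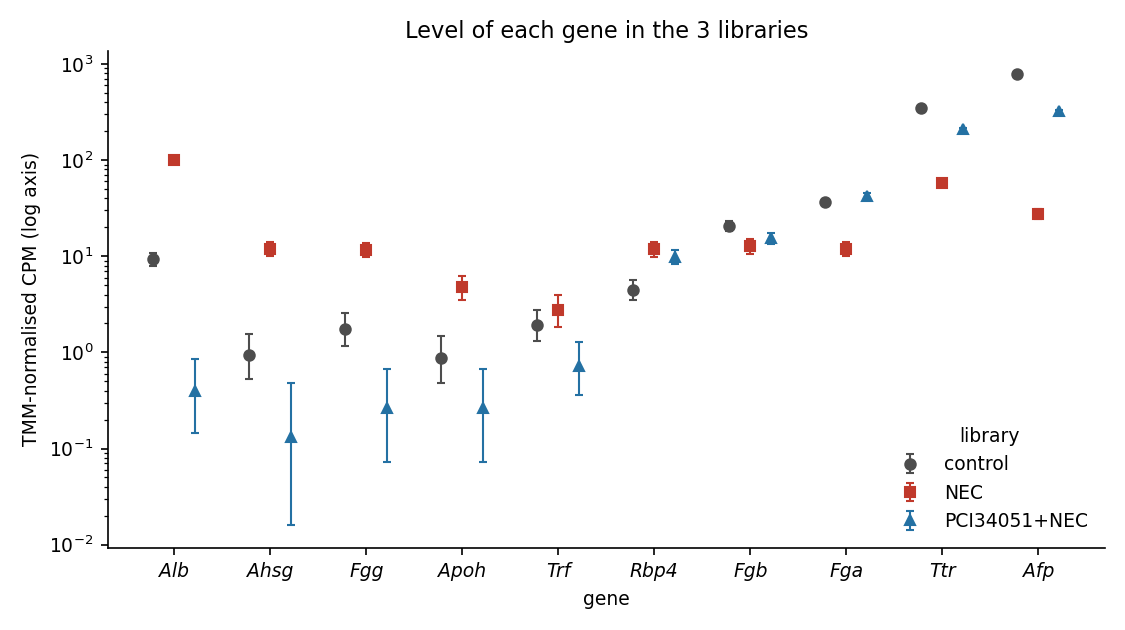
Level of each of the 10 genes (x axis) in TMM-normalised CPM (log y axis) in the control (circles), NEC (squares) and PCI34051+NEC (triangles) libraries. Bars are exact 95% Poisson intervals of the count; Alb, Ahsg, Fgg and Apoh are highest in NEC and lowest in PCI34051+NEC, while Afp and Ttr are lowest in NEC.

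Alb and Afp lie next to each other and moved apart. Alb (ENSMUSG00000029368, mm10 chromosome 5, 90460897 to 90476602, plus strand, protein-coding) encodes the main carrier and osmotic protein of plasma. Alb was counted 148 times in control, 1099 times in NEC and 6 times in PCI34051+NEC, or 9.31, 100.4 and 0.394 CPM. NEC was thus the high library and PCI34051+NEC the low one, with the control between them. Alb was 10.8-fold higher in NEC than in control (9.07 to 12.9, log2 fold 3.30) and 255-fold lower in PCI34051+NEC than in NEC (117 to 695, log2 fold -6.18). In the latter comparison Alb had the 2nd lowest log2 fold of 14410 measured genes. It was also 23.6-fold lower in PCI34051+NEC than in control (10.6 to 65.4), a ratio that rests on the 6 counts in PCI34051+NEC.

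Afp (ENSMUSG00000054932, chromosome 5, 90490737 to 90508907, plus strand) begins 14.1 kb beyond the end of Alb and is read in the same direction. Its counts were 12495, 302 and 4890 in control, NEC and PCI34051+NEC, or 786, 27.6 and 321 CPM. NEC was the low library, and control the high one. Afp was 28.5-fold lower in NEC than in control (25.4 to 32.1, log2 fold -4.78), the 13th lowest of 14627 measured genes. It was 11.6-fold higher in PCI34051+NEC than in NEC (10.4 to 13.1) and still 2.45-fold lower than in control (2.37 to 2.53). A non-coding antisense gene, Gm43449, overlaps Afp and is not among the rows of the table; without a stated strand setting its reads could have been counted to Afp.

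Per kb of exons, the scale on which genes can be compared, Afp stood 58.7 times above Alb in the control library (49.9 to 69.5) and 567 times above it in PCI34051+NEC (260.2 to 1545). In the NEC library the order was the opposite, with Alb 5.23 times above Afp (4.60 to 5.96). The third gene of the row, Afm (afamin, a vitamin E binding relative; 90518932 to 90553543), went with its neighbour Afp and not with Alb. Afm was at 45.5, 5.94 and 20.4 CPM, 7.66-fold lower in NEC than in control (5.94 to 10.0) and 3.43-fold higher in PCI34051+NEC than in NEC (2.62 to 4.55). Gc, the vitamin D binding protein and another member of the family, lies further away on the same chromosome (89417522 to 89457898, minus strand). Its levels of 1.07, 9.41 and 0.328 CPM had the order seen for Alb.

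**Figure D2:**
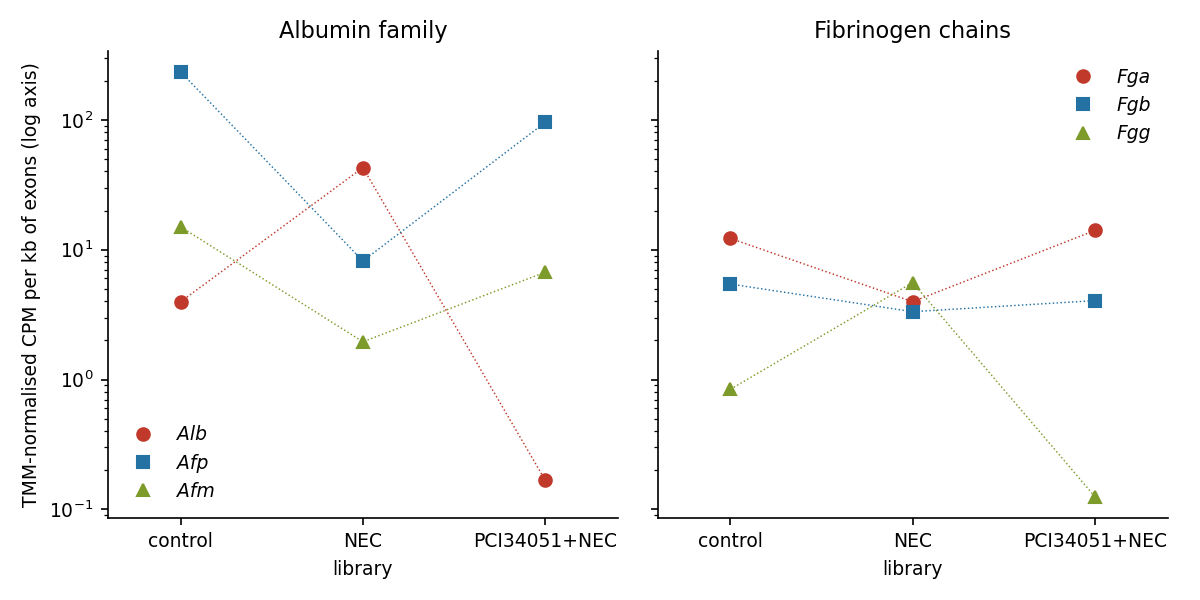
Level per kb of exons (TMM-normalised CPM per kb, log y axis) of 3 albumin family genes (left) and of the 3 fibrinogen chain genes (right) in each library (x axis), 1 library per point, with dotted lines joining points of a gene. Alb crosses Afp and Afm in the NEC library, and Fgg crosses Fga and Fgb there.

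The stretches before the start sites of Alb and Afp are shown because the adjacent genes differed in direction. They are the 250 bases before the RefSeq start (GRCm38.p6, the mm10 assembly), read 5′ to 3′. Capitals mark every match, on either strand, to a pair of motifs: TTGCNNAA, a core form of C/EBP sites, and CTGGGAA, known from interleukin-6 response elements of acute phase genes.
Alb, chr5:90460620-90460869, plus strand: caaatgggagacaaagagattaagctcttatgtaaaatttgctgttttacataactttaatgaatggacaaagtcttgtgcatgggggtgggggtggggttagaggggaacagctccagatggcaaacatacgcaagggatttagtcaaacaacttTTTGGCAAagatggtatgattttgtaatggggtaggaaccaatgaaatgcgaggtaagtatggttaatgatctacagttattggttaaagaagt
Afp, chr5:90490464-90490713, plus strand: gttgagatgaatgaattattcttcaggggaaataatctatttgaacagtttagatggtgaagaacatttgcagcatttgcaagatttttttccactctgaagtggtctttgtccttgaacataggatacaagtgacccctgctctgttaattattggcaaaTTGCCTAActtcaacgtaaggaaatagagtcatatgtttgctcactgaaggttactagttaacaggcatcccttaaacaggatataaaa
Both windows hold TTGCNNAA (first base 94 before the start in Alb, on the opposite strand, and 89 before it in Afp), and neither holds CTGGGAA. Of 32851 windows of this length before RefSeq starts, 9.56% hold TTGCNNAA and 9.10% hold CTGGGAA. These are matches of letters and were not measured as bound sites. The motifs were searched on both strands, and their matches do not overlap one another. Of the 10 genes, 8 were matched to a window in the RefSeq table used here.

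The 3 fibrinogen chains, which are assembled in equal numbers into the clotting protein, did not move together. Their genes share 1 cluster on chromosome 3, in the order Fgg, Fga, Fgb, with gaps of 11.0 and 6.51 kb. Fga (ENSMUSG00000028001, 83026076 to 83033627, plus strand), the alpha chain, had 584, 131 and 644 counts in control, NEC and PCI34051+NEC, or 36.7, 12.0 and 42.3 CPM. It was low in NEC alone: 3.07-fold lower than in control (2.54 to 3.74), and 3.54-fold lower than in PCI34051+NEC (2.93 to 4.30). Fgb (ENSMUSG00000033831, 83040141 to 83049863, minus strand), the beta chain, had 329, 139 and 235 counts, or 20.7, 12.7 and 15.4 CPM. Its difference was under 2-fold in every comparison, at 1.63-fold lower in NEC than in control (1.33 to 2.0). Between NEC and PCI34051+NEC, Fgb differed by no more than counting error (ratio 1.22, 0.982 to 1.51), and the sign of that difference turned under other scalings.

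Fgg (ENSMUSG00000033860, 83007724 to 83015049, plus strand), the gamma chain, had the opposite order, with 28, 128 and 4 counts, or 1.76, 11.7 and 0.263 CPM. It was 6.64-fold higher in NEC than in control (4.38 to 10.4), 44.5-fold lower in PCI34051+NEC than in NEC (17 to 166), and 6.70-fold lower than in control (2.35 to 26.3). The latter log2 fold, -1.13, came to -0.43 with a pseudocount of 4, under 2-fold. The proportions of the chains therefore differed between libraries. Per kb of exons, Fga was 14.5 times Fgg in the control (9.93 to 22) and 112 times Fgg in PCI34051+NEC (43.5 to 412). In NEC the ratio of Fga to Fgg was 0.712 (0.554 to 0.915) and that of Fgb to Fgg 0.597 (0.466 to 0.764), so that the 3 chains were nearest to equal in that library. A lincRNA gene, Gm30097, overlaps Fgg and is not among the rows of the table.

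**Figure D3:**
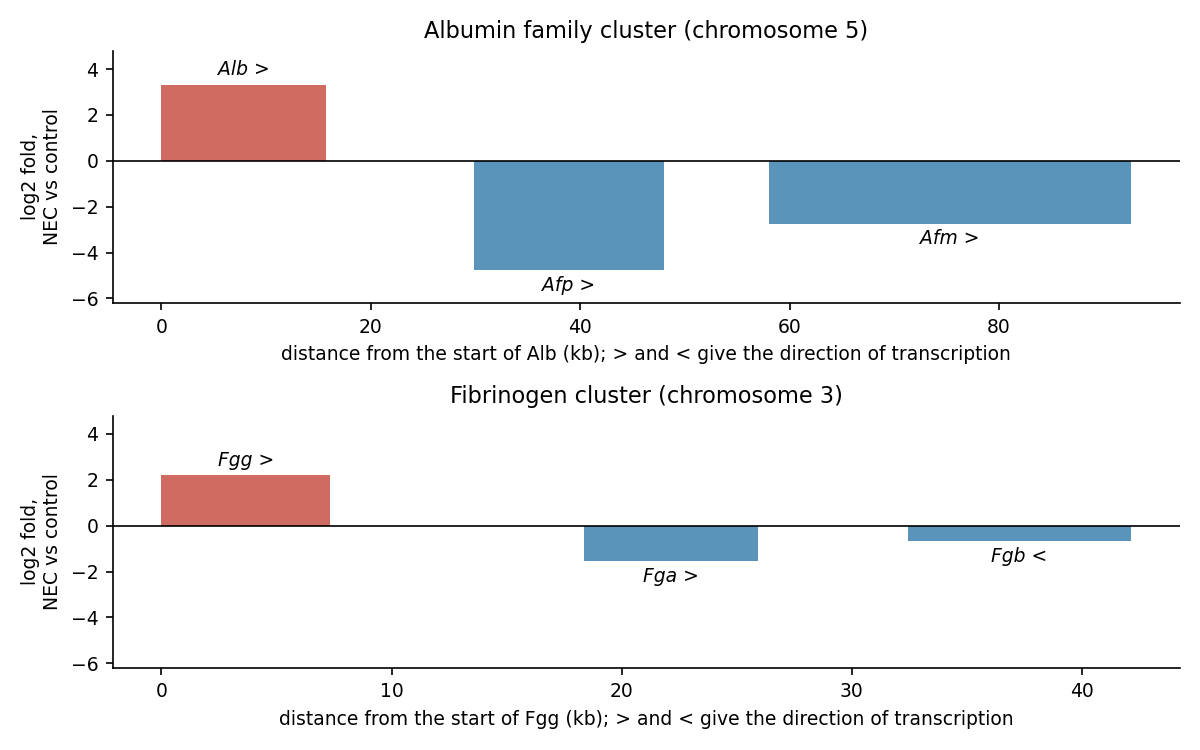
Gene bodies of the albumin family cluster (top) and the fibrinogen cluster (bottom), drawn to scale by distance from the start of the first gene in kb (x axis); bar height is the log2 fold of NEC against control on the log2(CPM + 1) scale (y axis). In either cluster the first gene stands above 0 and its neighbours below it: Alb 3.30, Afp -4.78 and Afm -2.74, then Fgg 2.20, Fga -1.54 and Fgb -0.66.

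The windows before the 3 fibrinogen genes are shown for the same reason, with the same motifs in capitals. GENCODE sets the start of Fga somewhat further upstream than RefSeq, inside the window.
Fgg, chr3:83007474-83007723, plus strand: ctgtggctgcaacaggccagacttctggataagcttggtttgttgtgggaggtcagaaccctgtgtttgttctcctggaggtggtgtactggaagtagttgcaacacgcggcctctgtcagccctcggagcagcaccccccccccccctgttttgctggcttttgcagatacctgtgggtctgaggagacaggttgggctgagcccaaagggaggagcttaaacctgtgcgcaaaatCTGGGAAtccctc
Fga, chr3:83025903-83026152, plus strand: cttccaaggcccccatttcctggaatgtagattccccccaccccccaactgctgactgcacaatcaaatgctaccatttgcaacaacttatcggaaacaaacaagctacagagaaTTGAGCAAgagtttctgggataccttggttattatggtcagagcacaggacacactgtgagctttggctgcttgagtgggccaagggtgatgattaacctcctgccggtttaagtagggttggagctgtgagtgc
Fgb, chr3:83049864-83050113, minus strand: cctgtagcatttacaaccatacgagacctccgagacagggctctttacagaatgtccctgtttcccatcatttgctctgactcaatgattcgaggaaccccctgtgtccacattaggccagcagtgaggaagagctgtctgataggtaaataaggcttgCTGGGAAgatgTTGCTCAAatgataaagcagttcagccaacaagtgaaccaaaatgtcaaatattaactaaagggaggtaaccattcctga
The Fga and Fgb windows hold TTGCNNAA 135 (opposite strand) and 80 bases before the start. The Fgg window does not, and has CTGGGAA 13 bases before the start, a motif that Fgb also has, 91 bases before. With Alb and Afp included, the windows with TTGCNNAA belonged to genes of both directions. Among the other searched genes, Ahsg and 1 of the 2 windows of Rbp4 held TTGCNNAA, and Apoh held neither motif. The Ahsg and Apoh windows and the matching Rbp4 window lie inside the gene bodies given by GENCODE, downstream of its starts.

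Ahsg and Apoh had the order of Alb at lower levels. Ahsg (ENSMUSG00000022868, chromosome 16, 22891277 to 22899449, plus strand) encodes fetuin-A, which keeps calcium phosphate in solution. It had 15 counts in control, 131 in NEC and 2 in PCI34051+NEC, or 0.944, 12.0 and 0.131 CPM. NEC was 12.7-fold above control (7.41 to 23.3), and PCI34051+NEC 91.1-fold below NEC (24.7 to 759.8), a wide interval because of the 2 counts. Apoh (ENSMUSG00000000049, chromosome 11, 108343354 to 108414396, plus strand), beta-2-glycoprotein I, binds anionic phospholipids. Its 14, 52 and 4 counts corresponded to 0.881, 4.75 and 0.263 CPM, so it was 5.39-fold higher in NEC than in control (2.94 to 10.5) and 18.1-fold lower in PCI34051+NEC than in NEC (6.65 to 68.8). With a pseudocount of 4 the log2 fold of Apoh in NEC against control was 0.84 in place of 1.61, under 2-fold. Apoh overlaps Prkca on the opposite strand, and with no strand setting given, reads of either gene may have been counted to the other or set aside.

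Ttr and Rbp4, the partners that carry retinol from the liver in a shared complex, did not follow each other. Ttr (ENSMUSG00000061808, chromosome 18, 20665280 to 20674321, plus strand), transthyretin, also binds thyroxine. It had 5605, 631 and 3179 counts, or 353, 57.6 and 209 CPM, in control, NEC and PCI34051+NEC. As with Afp, NEC was the low library: 6.12-fold below control (5.64 to 6.66) and 3.62-fold below PCI34051+NEC (3.33 to 3.95). PCI34051+NEC was 1.69-fold below control (1.62 to 1.76). Rbp4 (ENSMUSG00000024990, chromosome 19, 38116629 to 38125281, minus strand), plasma retinol binding protein, had 71, 130 and 149 counts, or 4.47, 11.9 and 9.79 CPM. Here the control was the low library, and the formula-fed libraries did not differ beyond counting error (1.21-fold, 0.951 to 1.55). Rbp4 was 2.66-fold higher in NEC than in control (1.98 to 3.60). Its log2 fold of 1.24 dropped under 2-fold, to 0.91, with a pseudocount of 4. The same fold came to 0.96, also under 2-fold, after correction for GC content and transcript length. In PCI34051+NEC, Rbp4 was 2.19-fold higher than in control (1.64 to 2.95), or 0.98 on the log2(CPM + 1) scale, just short of the 2-fold threshold. Ttr stood 89.4 times above Rbp4 per kb in the control (70.8 to 115), 5.50 times in NEC (4.54 to 6.69) and 24.2 times in PCI34051+NEC (20.5 to 28.7).

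Trf (ENSMUSG00000032554, chromosome 9, 103204001 to 103230444, minus strand), the iron carrier transferrin, was low throughout. It had 31, 30 and 11 counts, or 1.95, 2.74 and 0.723 CPM. Between NEC and control the ratio of 1.40 lay within counting error (0.821 to 2.4), whereas PCI34051+NEC was 3.79-fold below NEC (1.85 to 8.39) and 2.70-fold below control (1.32 to 5.95). The log2 fold of PCI34051+NEC against NEC, -1.12, came to -0.51 with a pseudocount of 4 and to -0.93 after the same correction, under 2-fold in either case. Gm20425, a protein-coding model on the same strand, overlaps Trf and is listed with 0 counts in all 3 libraries, so the level of Trf may be understated where reads fit both.

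**Figure D4:**
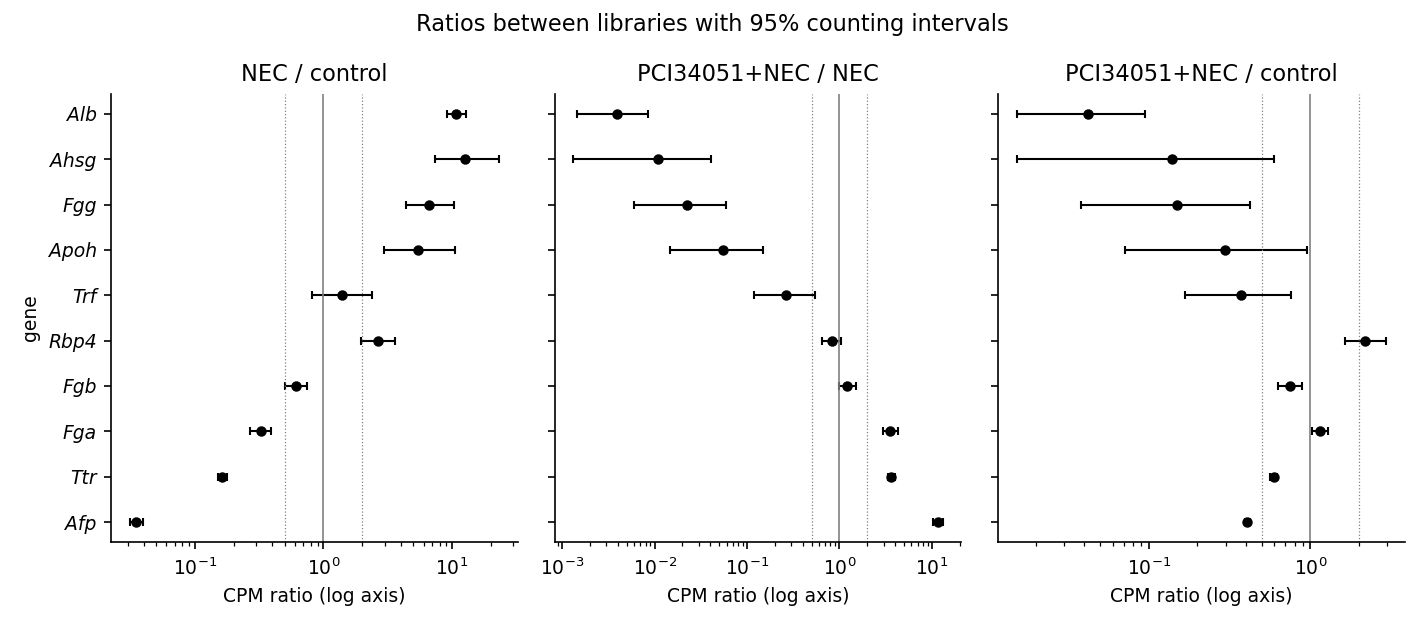
CPM ratios (log x axes) of the 10 genes (y axis) for NEC over control, PCI34051+NEC over NEC and PCI34051+NEC over control. Points are ratios, bars their 95% exact counting intervals, the solid line a ratio of 1 and the dotted lines 2-fold; Alb at 10.8 and Afp at 0.0351 stand near opposite ends of the first panel.

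The order of the levels per kb of exons shifted with the pattern. In the control library Ttr (297 CPM per kb, rank 123 of 13304 genes at 1 CPM or more) and Afp (233, rank 160) stood above the rest. Fga (12.2), Fgb (5.43), Alb (3.98) and Rbp4 (3.33) followed, and Alb and Rbp4 did not differ beyond counting error. Fgg (0.842), Trf (0.588), Apoh (0.553) and Ahsg (0.430) came last, each within counting error of the next. In the NEC library Ttr (48.6 CPM per kb) was nearly level with Alb (42.9), with a ratio of 1.13 (1.03 to 1.25). Rbp4 (8.84) and Afp (8.19) came next and did not differ beyond counting error, nor did Fgg (5.59) and Ahsg (5.45), or Fga (3.97), Fgb (3.33) and Apoh (2.98) as neighbours. Trf (0.825) was lowest. In PCI34051+NEC the order was Ttr (176 CPM per kb), Afp (95.4), Fga (14.1), Rbp4 (7.29) and Fgb (4.05), each above the next beyond counting error. Trf, Alb, Apoh, Fgg and Ahsg, at 0.218 CPM per kb or less, were not separated as neighbours by their 11, 6, 4, 4 and 2 counts.

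The proportion of Alb to other genes was set side by side for the control and NEC libraries in 9 pairs, picked after their values were seen. Per kb, Alb stood 9.26 times above Ahsg in the control (5.43 to 17) and 7.87 times in NEC (6.56 to 9.51). Alb stood 4.72 times above Fgg in the control (3.14 to 7.35) and 7.67 times in NEC (6.38 to 9.29), with intervals that overlap. For Gc the ratios were 6.86 (4.14 to 12.1) and 8.41 (6.86 to 10.4), and for the apolipoprotein gene Apoa2 1.79 (1.10 to 3.05) and 1.61 (1.36 to 1.91). For the enzyme gene Hpd they were 6.11 (3.89 to 10.1) and 5.81 (4.94 to 6.86). For Apoh they were 7.20 (4.16 to 13.5) and 14.4 (10.9 to 19.4), with intervals that overlap. For Hpx, the heme carrier hemopexin, they were 3.06 (2.06 to 4.66) and 5.81 (4.81 to 7.07), and the intervals do not overlap. Against Trf, which did not differ between these libraries beyond counting error, Alb was 6.77 times higher in the control (4.57 to 10.3) and 51.9 times in NEC (36.2 to 77.3). Alb over Rbp4 was 1.20 (0.895 to 1.61) and 4.85 (4.04 to 5.86). The intervals of the libraries were thus apart for Hpx, Trf and Rbp4 and overlapped for Ahsg, Fgg, Apoh, Gc, Apoa2 and Hpd. Overlapping intervals do not show that a proportion was the same, and the difference between libraries was given no interval of its own. With 6 counts of Alb, the PCI34051+NEC library gave 2.81 over Ahsg, with an interval from 0.503 to 28.5. There the intervals over Ahsg, Fgg, Apoh and Apoa2 overlapped those of the control. Those over Hpd (0.237, 0.0789 to 0.599), Hpx (0.549, 0.152 to 1.91) and Gc (0.945, 0.240 to 3.92) lay below them. So did those over Trf (0.773, 0.235 to 2.28) and Rbp4 (0.0231, 0.00834 to 0.0515).

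Of the other plasma proteins made by liver, most were highest in NEC and a few lowest there. Of 19 genes at 1 CPM or more in a library, 14 were highest in NEC and 4 lowest there. Of the 14, 10 had control next and PCI34051+NEC lowest, as for Alb. The share of all genes with these orders was not computed. A gene that reached 1 CPM in NEC alone was highest there through the filter, so the orders are a description only. Of 26 genes beside the 10, 19 were measured in NEC against control; 13 of these stood at least 2-fold above control and 4 below it, and their median log2 fold was 1.43, against -0.03 over all measured genes. Of 19 in PCI34051+NEC against NEC, 14 stood lower and 2 higher (median log2 fold -1.62). Over all measured genes, 24.2% were higher and 22.9% lower in NEC against control. In PCI34051+NEC against NEC, 25.6% were lower and 25% higher. Of the 26 genes, 10 reached 1 CPM in control, 18 in NEC and 9 in PCI34051+NEC. A gene that reached it in NEC alone could not be called lower in NEC, so the filter tilts these counts. Hp, the hemoglobin-binding haptoglobin, was at 0.503, 31.4 and 3.81 CPM, and Itih3, of the inter-alpha-trypsin inhibitor family, at 1.26, 17.7 and 3.61 CPM, both lowest in the control. F10, coagulation factor X, was at 139.6, 17 and 149 CPM, lowest in NEC as Afm was. Of 11 apolipoprotein genes known from both liver and intestine, 8 were measured, with 3 higher and 3 lower in NEC. Apoa2 (1.20, 14.3 and 0.263 CPM) and Apoc1 (3.40, 25.8 and 4.27 CPM) were highest in NEC. Apoc3 (778, 189.6 and 851 CPM) and Apob, the chylomicron protein (2614, 920.1 and 5615 CPM), were lowest there.

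Enzymes and transporters that define hepatocytes were counted beside them. Their summed level over 19 genes was 27.0, 70.1 and 22.2 CPM in control, NEC and PCI34051+NEC. Of these 19, 6 reached 1 CPM in control, 15 in NEC and 4 in PCI34051+NEC. Genes that reached it in NEC alone could not be called lower in NEC, so the filter tilts the counts that follow. Of 15 measured in NEC against control, 9 stood at least 2-fold above control and 1 below it (median log2 fold 1.31). Over all measured genes the shares were 24.2% and 22.9%. Of 15 in PCI34051+NEC against NEC, 10 stood lower and 2 higher, beside 25.6% and 25% of all measured genes. The median log2 fold of these 15 was -1.74, and -1.64 when a gene without counts was given 3 counts. Hpd, of tyrosine breakdown, had 22, 172 and 23 counts. Asgr1, the hepatocyte asialoglycoprotein receptor, had 4, 85 and 0 counts, and was at least 39.4-fold lower in PCI34051+NEC than in NEC against a floor of 3 counts. Bhmt, of methionine metabolism, had 7, 60 and 0 counts, at least 27.8-fold lower. The 1 gene lower in NEC was Hal, histidine ammonia-lyase, at 11.3, 1.46 and 6.44 CPM. Cyp7a1, the rate-limiting enzyme of bile acid synthesis, and Asgr2 were at 0 in NEC. Cyp1a2, Cyp7a1, Uox, Asgr1 and Bhmt were at 0 in PCI34051+NEC, and none was at 0 in the control. Their part in the differences of Alb, Ahsg, Fgg and Apoh was not tested.

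**Figure D5:**
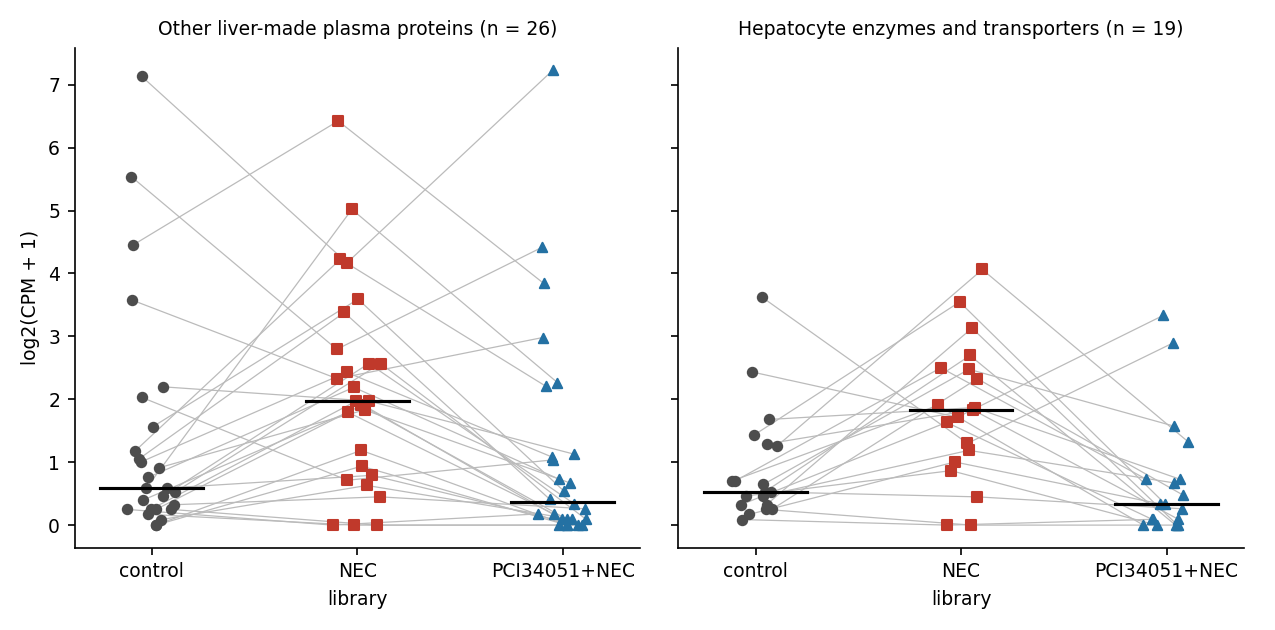
Level of 26 other plasma protein genes of the liver (left) and 19 hepatocyte enzyme and transporter genes (right) on the log2(CPM + 1) scale (y axis) in the 3 libraries (x axis), with 1 point per gene, grey lines joining a gene and black bars at the median. The medians are 0.59, 1.97 and 0.37 on the left and 0.53, 1.83 and 0.34 on the right for control, NEC and PCI34051+NEC.

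Markers of other cell types were read in the same way. Pancreas acinar genes were near the floor, with summed levels of 2.39, 5.75 and 5.85 CPM over 10 genes and Cela2a, Prss2, Pnlip and Cel at 0 in all libraries. Mesothelium markers summed to 50.1, 183 and 50.8 CPM over 5 genes, with none at 0, and Msln was at 18.4, 131 and 24.0 CPM. Of the 5, 3 were at least 2-fold higher in NEC than in control, where 24.2% of all measured genes were. Enteroendocrine markers summed to 328, 165 and 185 CPM over 10 genes, with none at 0. Nts, at 153.5, 13.4 and 88.2 CPM, made up much of that difference, while Ghrl was at 8.18, 19.1 and 5.45 CPM. Of the 10, 1 was at least 2-fold higher and 2 lower in NEC than in control, under the shares of 24.2% and 22.9%. Of 7 adipocyte markers, a cell type that makes Rbp4, 4 were at 0 in control and PCI34051+NEC. These were Adipoq, Plin1, Cfd and Lep, at 14, 20, 2 and 3 counts in NEC. The list summed to 162, 200.6 and 367 CPM, most of it Cidec (144, 84.3 and 318 CPM) and Fabp4 (17.4, 110 and 48.8 CPM). Enteric glia markers summed to 336, 247 and 740.6 CPM over 5 genes, most of it Erbb3, and Gfap was at 0 in NEC. Their part in the members' differences was not tested.

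Transcription factors known to drive or repress Alb and Afp showed no common direction. Of 21 measured in NEC against control, 4 stood at least 2-fold above control and 2 below it (median log2 fold -0.06). The shares of all measured genes were 24.2% above and 22.9% below. Cebpd, an inflammation-linked C/EBP factor, was at 10.9, 118 and 44.1 CPM, whereas Cebpa, the C/EBP factor of mature hepatocytes and enterocytes, was at 181, 49.6 and 105 CPM. Hnf4a, a nuclear receptor of liver and gut epithelium, was at 517, 196 and 347 CPM. Zfhx3, known as a repressor of Afp, was at 2.45, 15.7 and 3.61 CPM. The other known Afp repressors differed by less than 2-fold between NEC and control. Zbtb20 was at 22.5, 34.2 and 17.6 CPM and Zhx2 at 10.6, 6.58 and 10.2 CPM. The part of these factors in the levels of Alb and Afp was not tested. Of 5 measured fetal liver genes, 3 were at least 2-fold lower in NEC and none higher. Gpc3, a glypican that is co-regulated with Afp in mouse liver, was at 234, 37.6 and 253 CPM, and the fetal growth factor gene Igf2 at 11.2, 2.10 and 9.39 CPM.

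Genes of the interleukin-6 and acute phase axis were higher in NEC. Of 12 measured, 10 stood at least 2-fold above control and none below it (median log2 fold 1.95). Among all measured genes 24.2% stood above and 22.9% below. In PCI34051+NEC against NEC, 10 were lower and none higher, beside 25.6% and 25% of all measured genes. Of the 15 genes listed, 7 reached 1 CPM in control, 12 in NEC and 7 in PCI34051+NEC. Those that did so in NEC alone could not be called lower in NEC. Il6 had 0, 15 and 1 counts. The lipopolysaccharide-binding protein gene Lbp was at 1.07, 30.9 and 6.70 CPM and the copper ferroxidase gene Cp at 1.70, 14.2 and 2.23 CPM. Fgg was likewise highest in NEC, while Fga was lowest there. Of the 5 genes classed above as negative in the acute phase, Alb, Ahsg, Rbp4 and Trf were highest in NEC, Trf and Rbp4 by no more than counting error over their next library, and Ttr was lowest there.

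Receptors that take up these proteins were mostly lower in NEC. Of 11 uptake receptors and binding partners, 7 stood at least 2-fold below control and 1 above it (median log2 fold -1.39). For all measured genes the shares were 22.9% below and 24.2% above. Fcgrt, the neonatal Fc receptor that also recycles albumin, was at 2006, 238 and 1489 CPM. Lrp2 (megalin) was at 43.9, 4.11 and 13.8 CPM and its adaptor Dab2 at 1132, 180.4 and 884 CPM. The 1 higher gene was Tfr2, a transferrin receptor of liver, with 5, 76 and 9 counts. Of 11 measured iron genes, 8 were lower and 2 higher in NEC, with Slc40a1 (ferroportin) at 997, 53.1 and 578 CPM and the iron importer gene Slc11a2 at 968, 44.5 and 193 CPM. Of 14 retinoid genes, 5 were higher and 3 lower in NEC, beside the 24.2% and 22.9% of all measured genes. Nothing is read from these counts. Lrat, which esterifies retinol, was at 50.7, 1.37 and 19.4 CPM, and Crabp2 had 3, 61 and 4 counts.

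The genes most like Afp and Alb over the 3 libraries were found by the distance of log2(CPM + 1) levels centred on their mean, among 10519 other genes at 10 CPM or more in 1 library. With 3 libraries the measure describes only which library was high or low and by how much. Nearest to Afp were Igfals (distance 0.18; 41.0, 0.822 and 17.9 CPM), Lrat (0.30), Ctsl (0.34), Slc40a1 (0.44) and Lyplal1 (0.45). No gene came as near to Alb, where the closest were Fbxl22 (1.33; 14.2, 97.8 and 3.88 CPM), Hmcn2 (1.51), Npas4 (1.63), C4b (1.63) and Enkd1 (1.65).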

How the data were processed

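The deposited values are raw read counts by gene symbol, made by the authors in 3 libraries of total RNA (150 bp paired-end reads, per the labels' protocols). Per the submitters' processing notes, mm10 was the build; the sources used here do not give the aligner, annotation, strand setting or filters. The name of the third column resembles, without matching, the description of the PCI34051+NEC sample. It was assigned because no other column names an inhibitor, and all PCI34051+NEC values rest on that.

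Counts were scaled by TMM (edgeR 4.0.16, R 4.3.3; factors 1.05, 1.03 and 0.923 for control, NEC and PCI34051+NEC) over all libraries, and no model was fitted. A gene was measured at 1 CPM or more in either library of a comparison. Exon lengths (union of exons) and coordinates came from GENCODE M21, which held all 10 genes, and promoter windows from RefSeq (GRCm38.p6). The calculations were tested on simulated data. The members and lists were chosen with earlier results of these data known.

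Beside the members, the genes to name were up to 4 per list with the largest log2 fold between NEC and control among those reaching 5 CPM in 1 library, regulators reaching 5 CPM, and the 5 genes nearest to Alb and to Afp. Gc, Hpx, Gp9, Hbb-bt, Alas2, Il6 and the markers given for their 0 counts (with Adipoq, Plin1, Cfd and Lep) fall outside this and were chosen after their values were seen. The tried alternatives were size factors from DESeq2 1.42.0, total counts with or without the 50 most abundant and mitochondrial genes, other pseudocounts, filters and thresholds, and thinning. A correction for GC content and length, both of the longest transcript of each gene, was chosen after seeing the data. Python 3.11.15 was used.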

Additional observations from a re-analysis of the deposited data

How the results depend on the processing

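No paired analysis was possible because each group has 1 library. Among 196 log2 folds of the 10 genes under the settings that can alter a fold, none reversed a 2-fold difference, and 27 moved by more than counting error. The 28 values with DESeq2 size factors and the 28 after thinning all stayed within it. In NEC against control, 3 genes instead of 5 were higher with a pseudocount of 4, where Apoh (0.84) and Rbp4 (0.91) fell short of 2-fold. In PCI34051+NEC against NEC, 3 instead of 5 were lower at a minimum of 5 CPM, which leaves fewer genes. In PCI34051+NEC against control, 5 genes instead of 3 were lower with a 1.5-fold threshold. There 1 gene instead of 0 was higher with a pseudocount of 0.25, at 1.5-fold and after the correction for GC content and transcript length. After that correction Rbp4 was at 0.96 in NEC against control and 1.21 in PCI34051+NEC against control; the cause was not tested. Fgb between PCI34051+NEC and NEC changed sign, to -0.15 with total counts without the most abundant genes and to -0.10 after that correction. Rbp4 in the same comparison changed sign to 0.13 after it. Neither passed 2-fold. The scaling without those genes moved the median of all measured genes to 0.24 in NEC against control and to -0.41 in PCI34051+NEC against NEC. Depth limits most the PCI34051+NEC values of Alb, Ahsg, Fgg and Apoh, with 6, 2, 4 and 4 counts.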

Other observations

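Genes that act with fibrinogen in clotting and its reversal were split in direction. Of 11 measured coagulation and fibrinolysis genes, 3 stood at least 2-fold above control in NEC and 3 below it (median log2 fold -0.15), shares near the 24.2% and 22.9% of all measured genes. F13a1, whose product cross-links fibrin, had 12, 113 and 26 counts in control, NEC and PCI34051+NEC, and Plat, the tissue plasminogen activator, was at 3.78, 30.8 and 8.15 CPM. Tfpi, an inhibitor of the start of clotting, was at 93.7, 23.6 and 53.9 CPM. Of 6 platelet genes 3 were measured, with 2 at least 2-fold higher in NEC than in control and 1 lower. The higher ones were Itga2b, a subunit of the platelet fibrinogen receptor, at 3.27, 32.9 and 6.57 CPM, and Pf4 at 1.82, 10.6 and 2.69 CPM. The lower one was Gp9, a subunit of the receptor for von Willebrand factor, with 53, 8 and 32 counts. Erythroid genes summed to 116, 183 and 247 CPM. Of 5 measured in NEC against control, 1 was at least 2-fold higher and none lower, with a median log2 fold of -0.25. That gene was Hba-a1, a globin gene with a near-identical copy, at 49.4, 123 and 115 CPM, while Hbb-bs was at 55.6, 46.7 and 119 CPM, Hbb-bt at 4.53, 2.92 and 4.34 CPM and Alas2 at 1.82, 1.10 and 3.88 CPM.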
